A study of Mus musculus with 4 samples.

Results

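The interleukin 6 family is described here through 10 genes in cultured mouse 4T1 cells: the ligand genes Il6, Il11, Lif, Osm and Clcf1, the receptor chain genes Il6st, Il6ra, Lifr and Osmr, and Socs3, an inhibitor that the pathway induces. They were chosen by name, as every probe set whose annotated symbol was exactly 1 of these 10, which gave 11 probe sets for 10 of the 22180 genes tested. The 4T1 line is a mammary carcinoma line from a BALB/c mouse. Of the 4 arrays, 2 held cells in which a short hairpin RNA knocked down Ldha (shLDHA) and 2 held cells with a scrambled hairpin (scramble). This split follows the sample titles, because the cell type label reads LDHA in both groups. Ldha encodes a subunit of the enzyme that turns pyruvate into lactate. The shLDHA cells were a pool of cells kept after selection with 10 µg/ml puromycin. Whether scramble cells went through the same selection is not given in the labels, so knockdown and selection cannot be told apart. All cells spent 24 hours in complete RPMI medium before RNA was taken, and no other genotype, cytokine or drug separates the groups in the labels. The labels do not tie the arrays of a group to separate cultures, so every p-value below reflects array-to-array spread that could be purely technical. Values are log2 expression from RMA, the authors' array summary.

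Cytokines of this family signal through gp130, the product of Il6st, which the receptor complexes of all 5 ligands contain. Interleukin 6 and interleukin 11 first bind a chain of their own (for interleukin 6 the product of Il6ra) and then bring gp130 chains together, whereas LIF uses gp130 paired with the LIF receptor, mouse oncostatin M mainly gp130 paired with the oncostatin M receptor, and CLCF1 the LIF receptor, gp130 and a further chain made from Cntfr. Engaged gp130 activates JAK kinases that phosphorylate STAT3, and STAT3 induces SOCS3, which binds gp130 and shuts the signal off. Carcinoma cells can both make these cytokines and respond to them.

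Among the 10 genes, 1 was lower in shLDHA cells, Lif, 1 was higher, Il6ra, and the other 8 did not pass the test, which was limma's with an adjusted p under 0.05. Of all 22180 genes 6.36% passed, 2.99% lower and 3.37% higher. Lif, which encodes leukemia inhibitory factor, fell 2.28-fold, and Il6ra, the gene of the ligand-binding interleukin 6 receptor chain, rose 1.49-fold. In these bulk cultures, less RNA per cell and fewer cells that express a gene cannot be told apart. The shared receptor gene Il6st had nearly the same level in both groups. Il6 itself, Il11, Osm and Lifr were dim, meaning below a mark for background given further on.

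The bases just upstream of 3 of these genes are shown because Lif and Il6ra are the members that passed the test and Il6 is the ligand that names the family. Each run is the 250 bases before the annotated start of transcription, 5′ to 3′ on the gene's strand, from RefSeq on GRCm38.p6. Capitals mark every match to 3 motifs searched on both strands: the STAT motif TTCNNNGAA, the AP-1 motif TGANTCA and the kappaB motif of NF-kB. No searched motifs overlapped each other in these runs. The Lif window is chr11:4257318-4257567 on the plus strand, the Il6 window is chr5:30012864-30013113 on the plus strand and the Il6ra window is chr3:89913197-89913446 on the minus strand.
Lif: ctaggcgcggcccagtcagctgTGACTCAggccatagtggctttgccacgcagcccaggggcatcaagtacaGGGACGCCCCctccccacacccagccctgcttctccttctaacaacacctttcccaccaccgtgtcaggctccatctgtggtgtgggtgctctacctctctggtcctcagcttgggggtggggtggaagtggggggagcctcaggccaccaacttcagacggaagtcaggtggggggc
Il6: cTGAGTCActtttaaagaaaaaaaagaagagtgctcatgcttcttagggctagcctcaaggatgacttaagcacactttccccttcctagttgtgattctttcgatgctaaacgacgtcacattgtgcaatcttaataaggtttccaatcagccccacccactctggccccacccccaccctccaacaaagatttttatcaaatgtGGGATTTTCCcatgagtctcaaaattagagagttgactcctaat
Il6ra: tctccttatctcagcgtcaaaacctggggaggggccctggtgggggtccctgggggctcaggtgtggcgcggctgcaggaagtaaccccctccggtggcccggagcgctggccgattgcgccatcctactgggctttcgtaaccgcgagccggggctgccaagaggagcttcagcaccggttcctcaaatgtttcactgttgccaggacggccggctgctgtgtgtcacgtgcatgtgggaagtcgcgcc

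The Lif window held an AP-1 match that begins 228 bases before the start and a kappaB match that begins 178 bases before it. The Il6 window held an AP-1 match at 249 bases and a kappaB match at 44 bases before the start. No match to the 3 motifs lay in the Il6ra window. Of the 10 genes, 8 had a window, Il11 and Lifr having more than 1, and of their 10 windows 1 held a STAT match, 3 an AP-1 match and 2 a kappaB match. Of all 32851 windows of this length, 7.02% held a STAT match, 6.75% an AP-1 match and 7.25% a kappaB match. The single STAT match among the family genes was upstream of Socs3, beginning 154 bases before the start, and is shown in capitals with 10 bases on each side (chr11:117969502-117969530, minus strand).
Socs3: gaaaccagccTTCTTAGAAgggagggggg

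The targeted gene was checked first. Ldha read 6.31 and 6.15 on the shLDHA arrays, against 6.69 and 6.96 on the scramble arrays, in log2 units, and was 1.51-fold lower in shLDHA (limma adjusted p = 0.0390). The Ldha call was lost, with adjusted p of 0.0965, 0.163 and 0.128, when shLDHA replicate 1, shLDHA replicate 2 or scramble replicate 2 was dropped. The arrays had nearly equal medians, and across genes the 2 arrays of either group correlated at r = 0.997. Of 9 markers of 4T1 as an epithelial carcinoma line, 8 were above background on all arrays, with Cdh1 at a mean of 10.32 in shLDHA and 10.28 in scramble, and Krt14 was above it in shLDHA (4.54 and 4.86) and below it in scramble (3.88 and 3.92). The summed level of these 9 was 12.36 and 12.37 in shLDHA and 12.27 and 12.27 in scramble on the log2 scale, although 3 of them rose, among them Epcam (0.53), and 2 fell, Cldn3 (-0.97) and Cldn7 (-1.06). All 6 endothelial markers, 7 of 8 fibroblast markers and 7 of 9 leukocyte markers lay on every array below 4.19, a mark used here for background. It is the level that 95% of 1105 olfactory receptor genes, which few tissues transcribe, do not exceed, and a rough one, since probe sets differ in their own background. The exceptions were Pdgfra among fibroblast markers and Cd14 and Cd68 among leukocyte markers. The summed level of the leukocyte markers was lower in shLDHA (7.62 and 7.71) than in scramble (8.14 and 8.20), with Cd68 the marker that fell (-0.91) and the defining marker Ptprc below the mark on all 4 arrays; its part in the family's values was not tested.

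The ligands gave 1 call. Lif read 7.03 and 6.73 on the shLDHA arrays, against 8.01 and 8.13 on the scramble arrays. Both shLDHA arrays lay well below both scramble arrays, and the gap between the groups was larger than the spread within either. The means were 6.88 ± 0.22 in shLDHA and 8.07 ± 0.08 in scramble (SD, n = 2 each), a log2 change of -1.19 (SE 0.12, 95% interval -1.48 to -0.90), and limma gave an adjusted p of 0.00468. By size of change Lif held place 63 of the 663 genes called lower.

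Clcf1 encodes cardiotrophin-like cytokine factor 1, which signals through the LIF receptor, and was the other ligand gene above background. It read 6.54 and 6.71 on the shLDHA arrays, against 6.71 and 6.72 on the scramble arrays. The groups touched without overlapping, and the log2 change of -0.09 had a 95% interval of -0.32 to 0.13 (limma adjusted p = 0.646). That interval does not overlap the interval of the Lif change, although the difference between these genes was not tested.

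The remaining 3 ligand genes were below the background mark on all arrays. Il6 encodes interleukin 6, a cytokine of fever and the acute-phase response, and read 2.30 and 2.31 in shLDHA, against 2.72 and 2.42 in scramble (log2 change -0.26, SE 0.12; limma adjusted p = 0.254). Il11, the gene of interleukin 11, read 3.28 and 3.21 in shLDHA, against 3.35 and 3.48 in scramble (log2 change -0.17, SE 0.09; limma adjusted p = 0.360). Neither gene's groups overlapped, but both differences are small at a level where array signal is compressed and a fold may understate a change. Osm, the gene of oncostatin M, a cytokine made mostly by myeloid and T cells, read 2.94 and 3.09 in shLDHA, against 3.07 and 3.14 in scramble, with overlapping groups (log2 change -0.09, SE 0.09; limma adjusted p = 0.648). In the RefSeq gene order Osm and Lif are direct neighbours on chromosome 11 with 0 genes between them, and their values on these arrays differ as given.

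**Figure D1:**
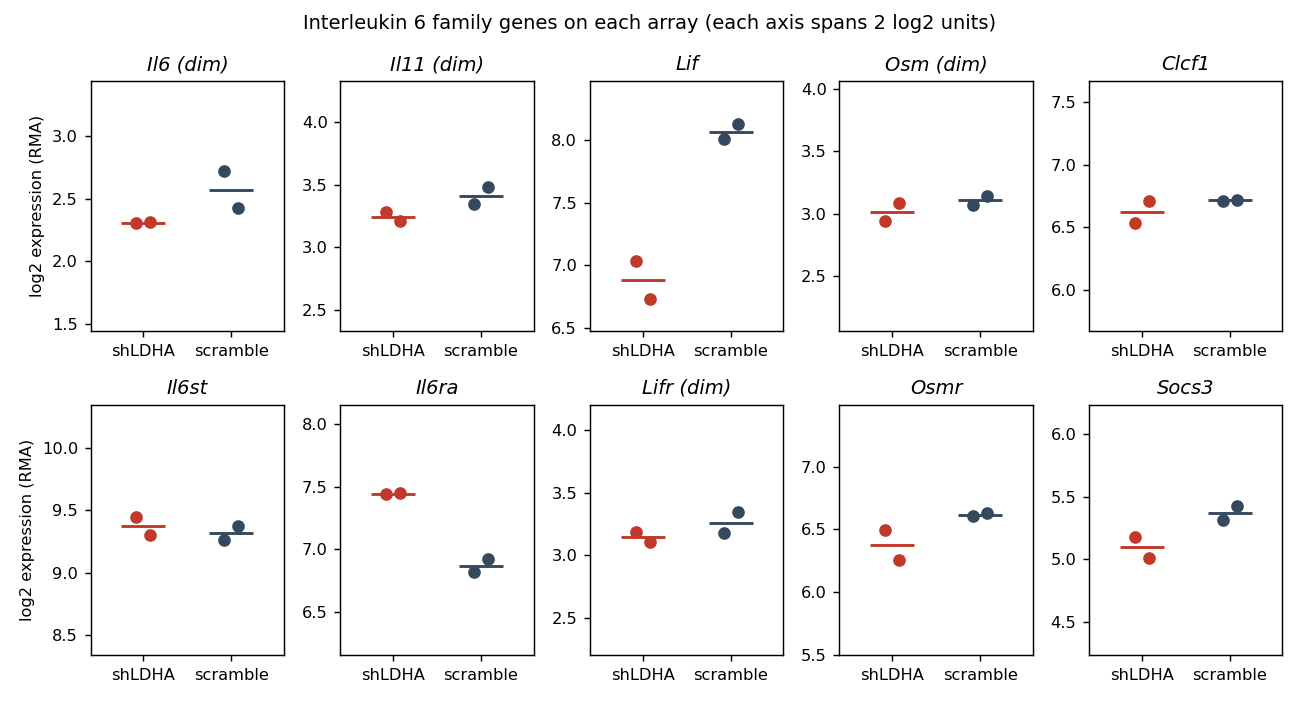
Log2 expression of the 10 family genes on each array; points are arrays, lines are group means, shLDHA is left of scramble, every axis spans 2 log2 units and "dim" marks genes below the background mark in both groups. Lif (7.03 and 6.73 in shLDHA, 8.01 and 8.13 in scramble) and Il6ra (7.44 and 7.45 in shLDHA, 6.81 and 6.92 in scramble) show the widest gaps between groups.

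Among the receptor chains, Il6ra was the gene that changed. It read 7.44 and 7.45 on the shLDHA arrays, against 6.81 and 6.92 on the scramble arrays. Both shLDHA arrays lay above both scramble arrays and differed from each other by less than the scramble arrays did. The means were 7.44 ± 0.01 in shLDHA and 6.87 ± 0.07 in scramble (SD, n = 2 each), a log2 change of 0.58 (SE 0.09, 95% interval 0.37 to 0.78; limma adjusted p = 0.0159). The change was near the middle of all genes called higher, at place 347 of 747 by size. The direction held whichever array was left out. The call did not: the limma adjusted p was 0.0749 and 0.0826 when replicate 1 or 2 of shLDHA was dropped, 0.0695 when scramble replicate 1 was dropped and 0.0402 when scramble replicate 2 was dropped.

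Il6st, the gene of gp130, read 9.44 and 9.30 on the shLDHA arrays, against 9.26 and 9.37 on the scramble arrays. The groups overlapped, and the log2 change of 0.06 had a 95% interval of -0.17 to 0.29 (limma adjusted p = 0.800). A change of the size seen for Lif or Il6ra lies outside that interval.

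Osmr, the gene of the oncostatin M receptor chain, read 6.50 and 6.25 on the shLDHA arrays, against 6.61 and 6.63 on the scramble arrays. The groups did not overlap, but the shLDHA arrays were farther from each other than the nearer was from scramble, and the log2 change of -0.24 did not pass (95% interval -0.50 to 0.01; limma adjusted p = 0.254). Lifr, the gene of the LIF receptor chain, was below the background mark at 3.19 and 3.10 in shLDHA, against 3.18 and 3.35 in scramble, with overlapping groups (log2 change -0.12, SE 0.10; limma adjusted p = 0.567).

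Socs3, whose product blocks gp130 signalling, had 2 probe sets. The brighter read 5.18 and 5.01 on the shLDHA arrays, against 5.32 and 5.43 on the scramble arrays. Its groups did not overlap, but the log2 change of -0.28 did not pass after adjustment over all genes (SE 0.10, 95% interval -0.51 to -0.04; limma adjusted p = 0.168). The second, below the background mark, read 3.47 and 3.61 in shLDHA, against 3.57 and 3.07 in scramble, with overlapping groups and a log2 change of 0.22 (SE 0.17). The probe sets therefore differed in sign, and the mean of both gave a log2 change of -0.03.

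**Figure D2:**
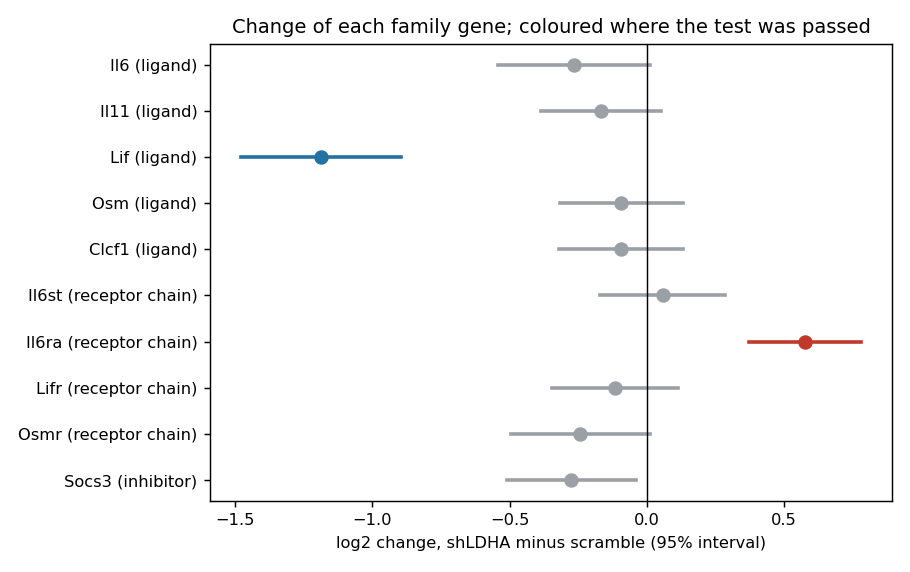
Log2 change of each family gene, shLDHA minus scramble, with its 95% interval from limma; blue marks a gene called lower, red a gene called higher, and grey genes did not pass. Lif (-1.19) and Il6ra (0.58) are the coloured genes, and the intervals of 7 of the other 8 include 0, all but that of Socs3.

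The groups did not overlap for 7 of the 10 members, 6 with shLDHA below scramble and 1 with shLDHA above it. Over all genes the groups did not overlap for 50.3%, 24.0% with shLDHA below and 26.2% with shLDHA above. The median log2 change was -0.14 over the 10 genes and 0.01 over all genes. A negative value was seen for 8 of the 10, and for 10710 of all 22180 genes. Of genes below the background mark in both groups 0.813% were called in either direction, against 12.1% of the others, and 4 family genes were of the first kind and 6 of the second.

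The rule for genes with the most similar pattern took the 11089 other genes at or above the median level. It compared the 4 values of each, after removing the gene's own mean, with those of a member. Nearest to Lif were Slc1a7, a glutamate transporter gene (root mean square distance 0.0250), Cped1 (0.0252) and Itga2, the gene of the collagen-binding integrin alpha 2 (0.0537). Cped1 was below the background mark on the shLDHA arrays (3.98 and 3.72), as was Slc1a7 on shLDHA replicate 2 (4.07). Nearest to Il6ra were Dck, the gene of deoxycytidine kinase (0.00944), the ubiquitin ligase gene Rnf5 (0.0101) and Racgap1, a gene of cytokinesis (0.0122). With 4 arrays this likeness describes a shared split between the groups and similar spreads, no more.

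Beyond the 10, the wider family gave 8 further cytokine and receptor genes that were tested. Of these, 1 was lower, 1 was higher and 6 did not pass, with a median log2 change of -0.0026. Over all genes 6.36% passed, and 5 of these 8 were dim in both groups. Cntf and Il11ra1 were not analysed here. Ctf1, the gene of cardiotrophin 1, another ligand for the LIF receptor and gp130, read 6.55 and 6.57 in shLDHA, against 6.19 and 6.13 in scramble, and rose by 0.40 (SE 0.08; limma adjusted p = 0.0419). Cntfr, the receptor chain for ciliary neurotrophic factor and CLCF1, read 2.99 and 3.27 in shLDHA, against 3.68 and 3.67 in scramble, and fell by 0.55 on the log2 scale at background level (SE 0.11; limma adjusted p = 0.0412). The call on Ctf1 was lost whichever array was left out, at limma adjusted p from 0.121 to 0.183. That on Cntfr was lost when shLDHA replicate 1 (0.128), scramble replicate 1 (0.116) or scramble replicate 2 (0.111) was dropped. Il27ra, a receptor chain that pairs with gp130, did not pass and lay near the background mark (log2 change -0.21).

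No gene passed among the 11 JAK kinases, STATs and adaptors tested, of which 3 had an unadjusted limma p under 0.05, as did 21.5% of all genes. Stat3, the main transcription factor below gp130, read 7.78 and 7.57 in shLDHA, against 7.77 and 7.78 in scramble (log2 change -0.10, SE 0.10; limma adjusted p = 0.634). Jak1, the kinase on which gp130 chiefly depends, had a log2 change of -0.03 (95% interval -0.24 to 0.17). Jak2 was closest to the threshold, at 9.05 and 8.89 in shLDHA against 8.65 and 8.59 in scramble (log2 change 0.35, SE 0.09; limma adjusted p = 0.0829). The adaptor gene Gab1 and the phosphatase gene Ptpn11, whose product links gp130 to the MAP kinase pathway, had log2 changes of 0.32 and -0.26.

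Of the 14 other negative regulators, Socs2 rose and 13 did not pass, with a median log2 change of -0.15. That 1 call in 14 stands beside 6.36% of all genes that passed. Socs2, known for damping growth hormone signalling, read 5.60 and 5.34 in shLDHA, against 4.81 and 4.99 in scramble (log2 change 0.57, SE 0.12; limma adjusted p = 0.0419). Its call was lost whichever array was left out (limma adjusted p from 0.0594 to 0.149) and its change was 0.31 as the mean of its probe sets. The tyrosine phosphatase genes Ptpn6 (log2 change -0.36; limma adjusted p = 0.0704) and Ptpn1 (-0.37; 0.0984) and Pias3 (0.25), which encodes an inhibitor of STAT3, came next, as did the inhibitor gene Socs1 (-0.28), which was below the background mark on all arrays.

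Genes that STAT3 is known to induce in other settings were split. Of 23 tested, 5 fell, 2 rose and 16 did not pass, with a median log2 change of -0.09. Over all genes 2.99% were called lower and 3.37% higher. Genes not dim in both groups passed more often, at 12.1% in either direction, and only 4 of these 23 were dim. Lcn2, the gene of the iron-carrier-binding protein lipocalin 2, had the widest gap, at 7.14 and 7.16 in shLDHA against 10.90 and 10.94 in scramble (limma adjusted p = 2.06e-05). Nfkbiz and Bcl3, which encode transcriptional regulators of inflammatory genes, fell by 1.29 and 0.69 on the log2 scale, and Bcl2l1, which encodes the survival protein BCL-XL, fell by 0.42. Cebpd, the gene of a transcription factor of the acute-phase response, also fell, but its shLDHA arrays, at 3.78 and 3.79, were below the background mark, against 4.82 on both scramble arrays, so the size of the change is uncertain (limma adjusted p = 0.00195). Lcn2, Nfkbiz, Cebpd and Bcl3 are also known targets of interleukin 1 and NF-kB signalling.

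The 2 that rose were Fos, an immediate early gene, by 0.75, and Birc5, the gene of survivin, whose level peaks in dividing cells, by 0.46. Those 16 that did not pass include Bcl6 (log2 change -0.38; limma adjusted p = 0.0665), Pim3 (-0.31; 0.120), Myc (-0.24; 0.172) and Hp (0.31; 0.199), the last near the background mark, and the acute-phase genes Saa3 and Lrg1, which were at background level. Of the 7 that passed, Lcn2, Nfkbiz and Cebpd did so whichever array was left out, and Bcl2l1 and Birc5 lost the call whichever array was left out. Bcl3 lost it when replicate 1 or 2 of shLDHA was dropped (limma adjusted p = 0.0727 and 0.0686), and Fos when shLDHA replicate 2 (0.0768), scramble replicate 1 (0.0594) or scramble replicate 2 (0.0699) was dropped.

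Of the genes whose products set the life of cytokine messages, 8 were tested: 2 fell, 0 rose and 6 did not pass (median log2 change -0.18). None of the 8 was dim, and 12.1% of all genes that were not dim passed in either direction. Zc3h12a, which encodes Regnase-1, a ribonuclease that degrades Il6 mRNA, read 5.14 and 5.34 in shLDHA, against 6.58 and 6.61 in scramble, and was 2.56-fold lower (log2 change -1.36, SE 0.10; limma adjusted p = 0.00157). It kept the call whichever array was left out. Zfp36l2, a member of the family of proteins that bind AU-rich elements of short-lived messages, fell by 0.46 (limma adjusted p = 0.0314) and lost the call whichever array was left out. Its relatives Zfp36l1 (log2 change -0.35; 0.0914) and Zfp36 (-0.06; 0.839) and Arid5a, whose product stabilises Il6 mRNA (-0.27; 0.156), did not pass.

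Of the 4 genes of receptor shedding, by which Il6ra protein is released from the cell surface, 1 fell. None of the 4 was dim, and 12.1% of genes that were not dim passed in either direction. Adam17, the gene of the protease that sheds it on stimulation, read 8.08 and 7.93 in shLDHA, against 8.01 and 7.96 in scramble (log2 change 0.02, 95% interval -0.20 to 0.24). Adam10, the gene of a protease that sheds it constitutively, had a log2 change of -0.05. Rhbdf2, the gene of iRhom2, which brings Adam17 protein to the cell surface, read 7.42 and 7.32 in shLDHA, against 7.90 and 8.01 in scramble (log2 change -0.58, SE 0.09; limma adjusted p = 0.0180). Its call was lost when replicate 1 or 2 of shLDHA (0.0644 and 0.0947) or scramble replicate 2 (0.0767) was dropped. Its relative Rhbdf1 had a log2 change of 0.20 (0.257).

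**Figure D3:**
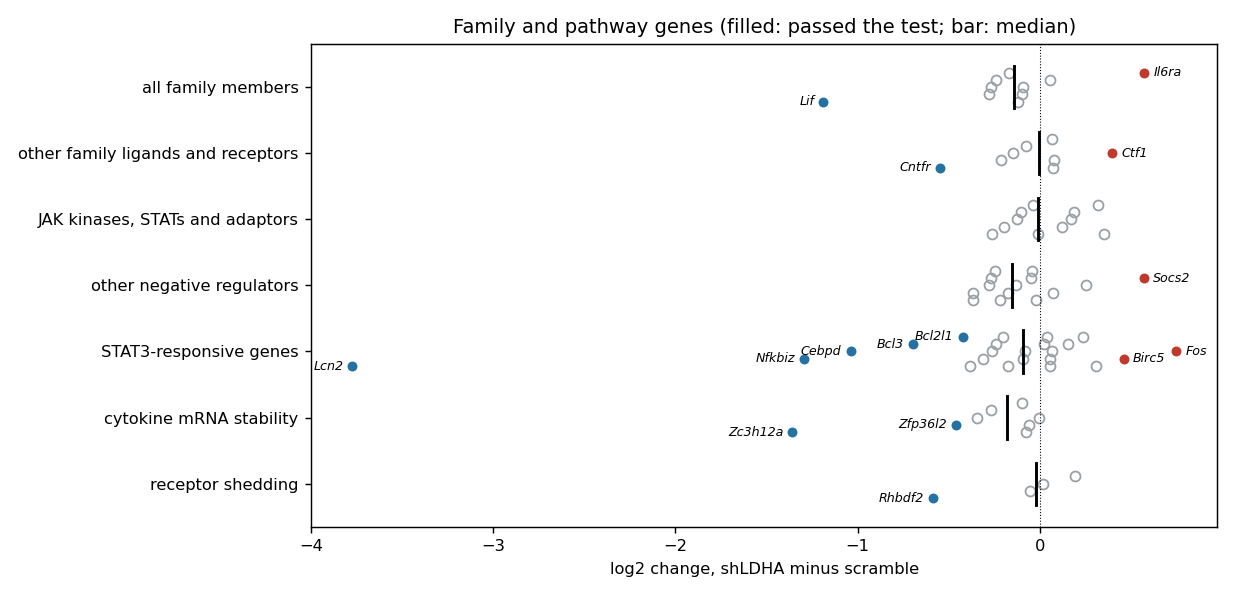
Log2 change, shLDHA minus scramble, of every tested gene of the family and of 6 pathway lists; filled points passed the test (blue lower, red higher), open points did not, and black bars are list medians. The 6 lists hold 9 genes called lower and 4 called higher, of which the STAT3-responsive list holds 7 and the list of JAK kinases, STATs and adaptors 0, and Lcn2 (-3.77) lies far from the rest. Over all genes 6.36% passed.

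**Figure D4:**
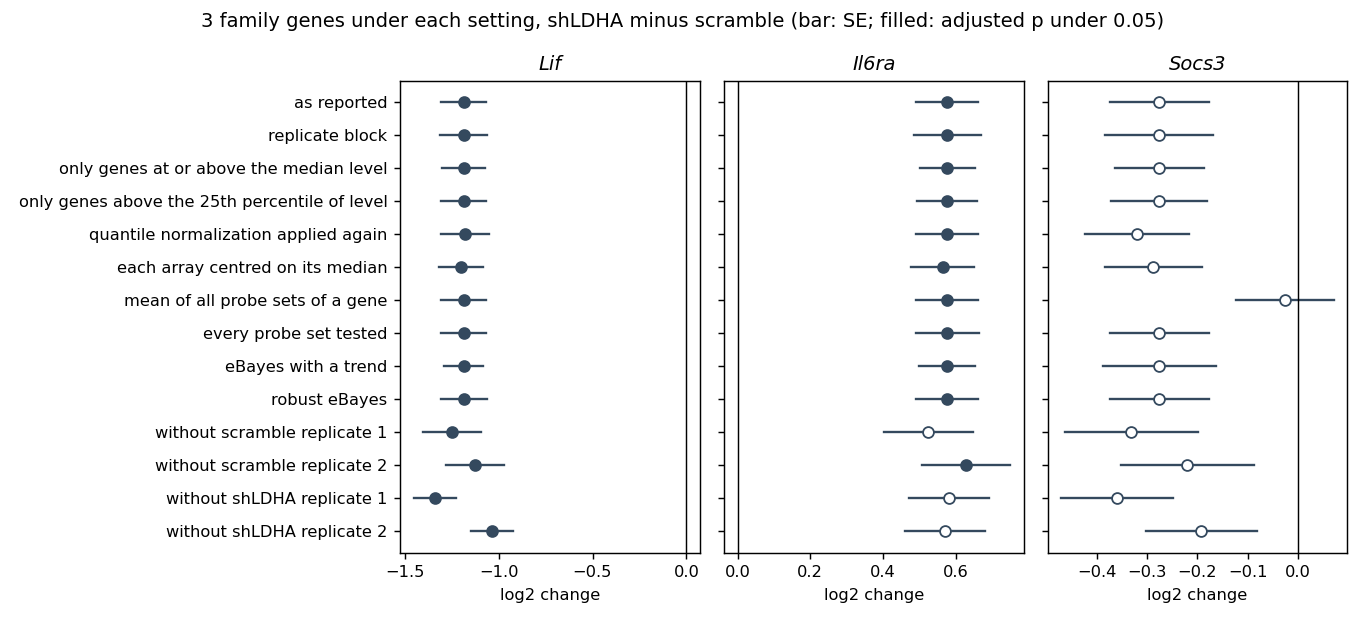
Log2 change of Lif, Il6ra and Socs3 with its SE under each setting; filled points have an adjusted p under 0.05. Lif is filled throughout, Il6ra is open in 3 of the 4 fits that leave out an array, and Socs3 is open throughout and lies nearest 0, at -0.03, when its probe sets are averaged.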

How the data were processed

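The authors deposited log2 expression values for 41345 probe sets on 4 arrays, which the submitters' processing notes credit to RMA in R 3.4.0. Per the labels' protocols, 400 ng of Trizol-extracted total RNA was biotin-labelled with a whole-transcript Affymetrix kit. Which annotation went into RMA is not stated there. Groups were taken from sample titles; 0 value columns were left out. The platform table gave 1 symbol for 23521 probe sets, several for 1814 and none for 16010. The first kind entered, with the brightest probe set kept for each of 1082 genes with more than 1.

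The 22180 genes were fitted together with limma 3.58.1 in R 4.3.3 (lmFit, eBayes, no covariate, two-sided). The threshold was an adjusted p of 0.05 (Benjamini-Hochberg, over all genes). The fit had 2 residual and 4.52 prior degrees of freedom. It was also run on data simulated from its own fitted spread with independent noise. That setting holds no array or culture effects, so it cannot show how the fit handles them. Arrays have no read depth; their number limits the precision. Members and lists were chosen with earlier results of these data known, so the lists' directions are not independent evidence. Named were all members and Ldha, list genes past the threshold, up to 4 others per list by p, and the 3 genes most like each called member; others were chosen after their values were seen. Alternatives were the replicate number as a block, 2 filters on dim genes, repeated quantile normalization, median centring, the mean of probe sets, every probe set, eBayes with a trend or robust, each array left out, and a threshold of 0.1. Figures used matplotlib 3.10.9.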

Additional observations from a re-analysis of the deposited data

How the results depend on the processing

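Lif stayed called lower under all 13 alternative fits (log2 change -1.34 to -1.03), and the 8 family genes that did not pass, such as Socs3 (-0.36 to -0.03), gained no call in any of these fits that tested them. Il6ra passed in 10 of 13 and stayed positive (0.52 to 0.63). Il6st, not called, was -0.015 without shLDHA replicate 1, and 0.13 without shLDHA replicate 2. Leaving out 1 array, which also leaves 1 residual degree of freedom and a lone array assumed to vary like the other group, gave 0 to 1 family genes higher, 4 to 6 pathway genes lower and 0 to 1 higher, against 9 lower and 4 higher with all arrays, and Ldha between -0.73 and -0.45. With a trend in eBayes, 17 pathway genes were lower and 5 higher. Among them were 9 STAT3-responsive genes lower, and 1 JAK, STAT or adaptor gene lower and 1 higher. With only genes at or above the median level, 13 pathway genes were lower and 6 higher, including 1 JAK, STAT or adaptor gene higher. With only genes above the 25th percentile of level, 11 were lower and 4 higher. At a threshold of 0.1 in the main fit, no further family gene was called. Jak2 was then also called higher, and Ptpn6, Ptpn1, Bcl6 and Zfp36l1 lower.

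The replicate numbers did not pair the arrays (correlation of deviations -0.03 across genes). With the replicate number as a block, 1 family gene was lower and 1 higher as before, 6 pathway genes were lower and 1 was higher, and Ldha kept its change of -0.59 but not the call (adjusted p = 0.0734). Calls on Ctf1, Cntfr, Socs2, Bcl2l1, Birc5 and Zfp36l2 were lost there as well. Socs2 also lost its call with quantile normalization applied again (0.54) and with its probe sets averaged (0.31). For changes not explained by fewer arrays the cause was not tested. Signal near background limits what can be said of Il6, Il11, Osm, Lifr, Cntfr, Socs1 and Cebpd.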
